A study of Mus musculus with 5 samples.

Results

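The enzymes that build cholesterol from mevalonate were followed through 5 RNA-seq libraries of cultured mouse neural cells. The set was named by function, with earlier results of these data known, as the 9 genes Hmgcs1, Mvd, Idi1, Fdps, Fdft1, Sqle, Lss, Cyp51 and Dhcr7. RefSeq transcripts of 8 of the 9 genes were matched among the 20178 transcripts of the tables. The read level of Hmgcs1 was not analysed here. Another 13 enzymes of the same pathway were measured and serve as the surrounding pathway.

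All 5 cultures came from mice of the ICR strain and were at passage 2, with 1 library for each condition. Ctx NPC is the library of neural progenitor cells from the cortex at embryonic day 12, and Ctx astrocytes are labelled as astrocyte progenitor cells from the cortex at postnatal day 5. The other 3 libraries are astrocyte progenitor cells of the ventral midbrain (VM) at postnatal day 5. The first received no virus, and the others are titled C and NF. Their labels contradict each other, since the treatment entry of the library titled C names lentiviruses expressing Nurr1 and Foxa2 and that of the library titled NF names the mock virus. These are therefore called the VM libraries titled C and NF. Exchanging the treatments would turn the meaning, though not the size, of each difference between them. In the methods of the study, both factors are driven by the CMV promoter. Nurr1 is given there as mouse, while Foxa2 is marked as rat in a sentence that also calls all the genes mouse, so its species is not settled. Nr4a2, the gene of Nurr1, was read 183 times in the library titled NF, 53 times in that titled C and 81 times without virus. For Foxa2 these numbers were 216, 15 and 68. The number of animals behind each culture and the culture conditions of the NPC are not given in the sources used here.

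Cholesterol synthesis starts from acetyl-CoA, passes through mevalonate and the isoprenoid farnesyl diphosphate to squalene, and ends with the closing and trimming of the sterol rings. The brain makes its own cholesterol, because lipoproteins of the blood do not cross the blood-brain barrier, and much of it goes into myelin, the lipid-rich sheath laid down by oligodendrocytes. The genes are switched on together by SREBP-2, a transcription factor held in the endoplasmic reticulum by SCAP and the INSIG proteins when sterol is plentiful, which acts at promoters with the help of NF-Y and Sp1.

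RefSeq promoter windows on GRCm38.p6, from 250 bases before to 50 bases after each start site, were matched for 6 of the 9 genes. Those of Fdps, Fdft1 and Sqle were not analysed here. The 250 bases before the start are shown for the 3 measured members with a window that differed most between the cortical libraries, with the NF-Y box (CCAAT) and the Sp1 box (GGGCGG) in capitals, on either strand. They are Idi1 on the forward strand at chr13:8885356-8885605, Lss on the forward strand at chr10:76531355-76531604 and Mvd on the reverse strand at chr8:122443423-122443672.
Idi1: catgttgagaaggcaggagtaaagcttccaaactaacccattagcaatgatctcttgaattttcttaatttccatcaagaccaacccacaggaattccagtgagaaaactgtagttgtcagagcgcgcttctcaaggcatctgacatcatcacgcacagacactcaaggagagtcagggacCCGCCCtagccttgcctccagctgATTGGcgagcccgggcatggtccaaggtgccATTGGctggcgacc
Lss: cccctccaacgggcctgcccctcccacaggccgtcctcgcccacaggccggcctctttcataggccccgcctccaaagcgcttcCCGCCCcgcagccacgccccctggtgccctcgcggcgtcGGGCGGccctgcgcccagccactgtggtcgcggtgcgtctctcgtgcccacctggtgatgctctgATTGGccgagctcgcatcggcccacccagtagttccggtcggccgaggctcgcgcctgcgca
Mvd: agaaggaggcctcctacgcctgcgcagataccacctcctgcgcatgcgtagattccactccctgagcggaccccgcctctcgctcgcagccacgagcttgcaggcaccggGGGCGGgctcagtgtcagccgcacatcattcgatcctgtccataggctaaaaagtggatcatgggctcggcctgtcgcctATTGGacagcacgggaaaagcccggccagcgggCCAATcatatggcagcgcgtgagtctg
Each of the 3 held both boxes. An NF-Y box began 45 and 14 bases before the start of Idi1, 62 bases before that of Lss, and 60 and 27 bases before that of Mvd. In all, both boxes were found for 6 of the 6 members with a window, Hmgcs1 included, where a gene with several start sites such as Dhcr7 was counted if any of its windows held the box. Of the 11 other pathway enzymes with a window, 10 held the NF-Y box and 9 the Sp1 box. The NF-Y box was present in 37.4% and the Sp1 box in 35.7% of all 32851 windows of this length, or 41.1% and 38.2% of genes. These shares count each box separately. The core of the sterol regulatory element, searched as TCACNCCAC on both strands, was in 1.24% of all windows. Among the members it was found in the window of Hmgcs1, 137 bases before the start, and it was not in those of the 11 other pathway enzymes with a window. These are matches of letters in a window and say nothing of binding in these cultures.

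The libraries held between 20010818 and 22554835 counted reads, so that 3 reads, the smallest number taken as measurable, make 0.133 to 0.150 CPM (counts scaled to the library total). All 8 members were well above that level, from 69 reads of Idi1 in Ctx astrocytes to 5306 reads of Cyp51 in Ctx NPC. The library labelled as neural progenitors was checked against markers. Sox2 and Fabp7, both marking progenitors and glia, had 9940 and 29342 reads, and Hes5, a Notch target of progenitors, had 1050. Of markers of committed neuronal progenitors, Neurog2 had 6 reads and Eomes 147, against 3 of each in Ctx astrocytes. Dcx and Tubb3, markers of young neurons, had 3831 and 4735 reads against 2 and 390. Against Ctx astrocytes, Stmn2 of the same neuronal list went the other way and was 3.58-fold lower in Ctx NPC. The same library held 75411 reads of Mbp, a main protein of myelin, and 122531 of Gfap, the intermediate filament of astrocytes. Of the 10 myelin genes tested, all 10 were at least 2-fold above Ctx astrocytes, and they spanned a wide range of reads. Mal and Aspa of the same list, too low to be tested there, were 1.55-fold higher and 2.06-fold lower. Against all 4 astrocyte libraries, 8 of 12 myelin genes were at least 2-fold above and 1 was at least 2-fold below. Of all genes tested, 9.17% and 13.6% were so. Mag, Ugt8a and Cldn11 had 6184, 5376 and 9147 reads, while Mog and Opalin had 55 and 37, against 2 and 0 in Ctx astrocytes. The 12 genes of the myelin list summed to 8274 CPM in Ctx NPC and to 237 to 454 CPM in the 4 astrocyte libraries. In Ctx astrocytes, Cnp alone made 6156 of the 6986 reads of this sum. The 8 microglial genes had only 1 to 7 reads each in Ctx NPC. Their sum was 1.45 CPM there, against 47.3 CPM in Ctx astrocytes and 663 CPM in the VM library titled C. P2ry12 alone of this list, too low to be tested, was not lower than in Ctx astrocytes, at 1.06-fold. Of 7 progenitor genes tested, 4 were at least 2-fold above Ctx astrocytes, as were 5 of the 6 neuronal genes and 20.1% of all genes tested. Nes, Sox2 and Pax6 were only 1.07-fold, 1.48-fold and 1.44-fold higher, and Fabp7 was 5.17-fold higher. The neuronal list summed to 525 CPM in Ctx NPC, 251 CPM in Ctx astrocytes and 403 to 599 CPM in the VM libraries. In the astrocyte libraries most of this sum was Stmn2. It made 4878 of 5380 reads in Ctx astrocytes and 12377 of 12760 in VM astrocytes without virus. In the libraries titled C and NF it made 8106 of 9098 and 9697 of 9993 reads. Opalin was at 0 in every astrocyte library other than that titled C. The library labelled Ctx NPC thus held transcripts of progenitors, neurons, astrocytes and oligodendrocytes together. In such bulk samples, more cells of a type and more RNA of a gene per cell cannot be told apart.

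The central comparison was between the 2 cortical libraries, Ctx NPC and Ctx astrocytes, and asked where the enzymes stood in the myelin-rich culture. All 8 measured members were higher in Ctx NPC, by 2.66-fold to 8.76-fold, with a median log2 ratio of 2.76. Over the 12623 genes with FPKM above 1 in at least 1 of the libraries, the median log2 ratio was 0.19, and 20.1% of them were at least 2-fold higher and 17.9% at least 2-fold lower. FPKM is the count scaled to transcript length and library total. All 8 members met the 2-fold rule. The 8 values come from the same pair of libraries, so they are not replicates of each other. With 1 library per condition no test was possible. The exact (Clopper-Pearson) 95% intervals given here treat each read as a separate draw and cover counting error only. PCR copies of a molecule are counted as separate reads, so the intervals can be too narrow even for counting error. No variation between cultures was measured.

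The first 3 measured members lead from mevalonate diphosphate to farnesyl diphosphate. Mvd, which makes isopentenyl diphosphate, had 78.8 CPM in Ctx NPC, 11.5 in Ctx astrocytes, 13.7 in VM astrocytes without virus, 15.1 in the library titled C and 12.6 in that titled NF. Idi1, the isomerase of that product, had 28.4, 3.22, 3.85, 5.54 and 3.98 CPM in the same order. Fdps, which joins the units to farnesyl diphosphate, had 151.0, 19.97, 28.7, 32.8 and 20.1 CPM. In each of the 3 genes the NPC library stood alone at the top, and Ctx astrocytes had the lowest value, though within counting error of the next lowest. The log2 ratio of Ctx NPC to Ctx astrocytes was 2.78 for Mvd (interval 2.58 to 2.98), 3.13 for Idi1 (2.78 to 3.52) and 2.92 for Fdps (2.77 to 3.07).

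The next pair commits farnesyl diphosphate to sterols. Fdft1, the squalene synthase, had 193.5 CPM in Ctx NPC, 72.7 in Ctx astrocytes, 63.8 in VM astrocytes without virus, 45.1 in the library titled C and 62.4 in that titled NF. Sqle, the squalene epoxidase and a rate-limiting step, had 215 CPM in Ctx NPC and 56.3, 52.9, 46.2 and 46.5 CPM in the others. These had the smallest and the third smallest ratios of the set, 1.41 for Fdft1 (interval 1.33 to 1.5) and 1.93 for Sqle (1.84 to 2.03) on the log2 scale. Fdft1 overlaps the end of Ctsb, a lysosomal protease gene, by 774 bases on chromosome 14 of GRCm38.p6, and whether the counting used strand is not given in the sources used here. Ctsb had 11647 reads in Ctx NPC, 38524 in Ctx astrocytes and 85383 in the library titled C, where Fdft1 was lowest. The part of this overlap in the Fdft1 values was not tested.

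The last 3 members close and trim the rings. Lss, the lanosterol synthase, had 87.7 CPM in Ctx NPC, 9.98 in Ctx astrocytes, 9.72 in VM astrocytes without virus, 15.2 in the library titled C and 9.49 in that titled NF. Cyp51, the lanosterol demethylase, had 265 CPM in Ctx NPC and 39.5, 47.8, 57.6 and 43.6 CPM in the astrocyte libraries. Dhcr7, which makes the final reduction of one branch of the pathway, had 109.5, 32.8, 29.6, 32.3 and 35.5 CPM. The NPC value was again far from the rest, while the 4 astrocyte values of Dhcr7 lay within 1.20-fold of each other. The log2 ratio between the cortical libraries was 3.13 for Lss (interval 2.93 to 3.35), 2.75 for Cyp51 (2.64 to 2.85) and 1.74 for Dhcr7 (1.62 to 1.87). Lss and Mvd each overlap a long noncoding RNA in the annotation, by 11269 and 3213 bases, and without strand the reads of such partners cannot be told apart from theirs.

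**Figure D1:**
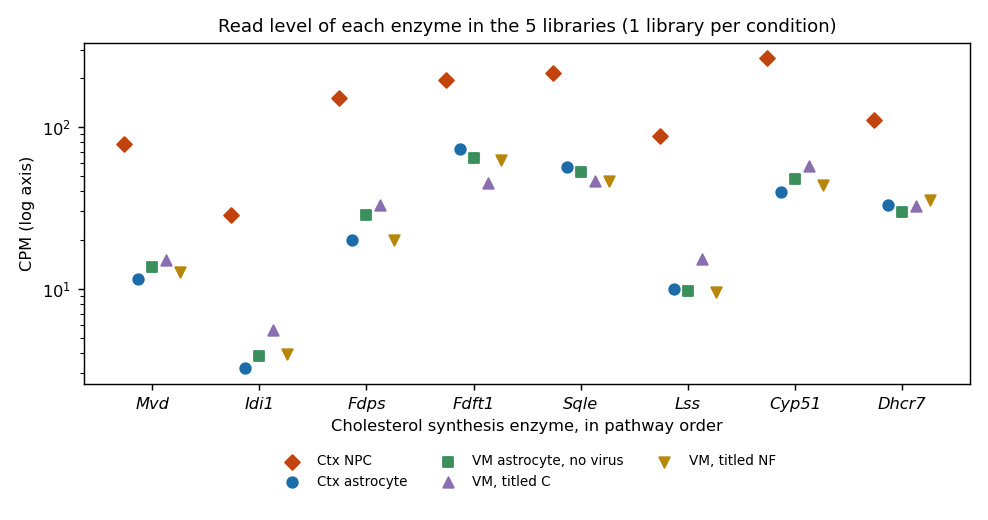
CPM on a log axis of the 8 measured cholesterol synthesis enzymes, with 1 point for each of the 5 libraries. The Ctx NPC point of every enzyme lies above its 4 astrocyte points, from 28.4 CPM for Idi1 to 265 CPM for Cyp51.

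The gap held against every astrocyte library. The ratio of Ctx NPC to the nearest astrocyte library was smallest for Fdft1, at 2.66-fold with a lower bound of 2.51-fold, and largest for Lss, at 5.77-fold with a lower bound of 5.15-fold. All 8 members were at least 2-fold above all 4 astrocyte libraries, as were 9.17% of the 13298 genes tested, and 13.6% of those genes were at least 2-fold below all 4. The median of these smallest log2 ratios was 2.20 for the members and -0.17 for all genes tested. These 4 ratios share the Ctx NPC library, so they are not separate measurements of it. The astrocyte libraries themselves spanned 1.20-fold for Dhcr7 to 1.72-fold for Idi1. Summed over the 8 enzymes, the level was 1129 CPM in Ctx NPC (95% Wilson interval 1115 to 1144), 246 CPM in Ctx astrocytes, 250.1 CPM in VM astrocytes without virus, 249.7 CPM in the library titled C and 234 CPM in that titled NF. The sum was 4.59-fold higher in Ctx NPC than in Ctx astrocytes.

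The surrounding enzymes moved the same way with exceptions. Of the 13 other enzymes, 9 were at least 2-fold higher in Ctx NPC than in Ctx astrocytes and none was 2-fold lower, with a median log2 ratio of 1.55. Over all genes tested, 20.1% were at least 2-fold higher and 17.9% at least 2-fold lower. Acat2, which opens the pathway by joining acetyl-CoA units, had 4160 reads in Ctx NPC and 552 to 695 in the astrocyte libraries, a log2 ratio of 2.84 between the cortical libraries (interval 2.71 to 2.96). Mvk and Pmvk, the mevalonate kinases, had log2 ratios of 2.08 and 1.69. Nsdhl and Msmo1, which remove methyl groups from the ring, stood at 1.55 each. Of the sterol reductases of the same step, Tm7sf2 stood at 1.71 and Lbr at 1.18, but Lbr was 1.22-fold above the library titled NF and so not at least 2-fold above all 4 astrocyte libraries. The other 8 enzymes past 2-fold were. The 4 enzymes under 2-fold were Ggps1, Hsd17b7, Ebp and Sc5d, which are named here after their values were seen. Ggps1 extends farnesyl diphosphate to the lipid used for protein prenylation and so leads away from sterols. It had 572 reads in Ctx NPC, 764 in Ctx astrocytes and 630 to 727 in the VM libraries, a log2 ratio of -0.32 between the cortical libraries. Hsd17b7, Ebp and Sc5d, late enzymes of the sterol ring, had log2 ratios of 0.60, 0.58 and 0.51. The 381 reads of Ebp in Ctx NPC lay below the 442 to 626 reads of the VM libraries.

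**Figure D2:**
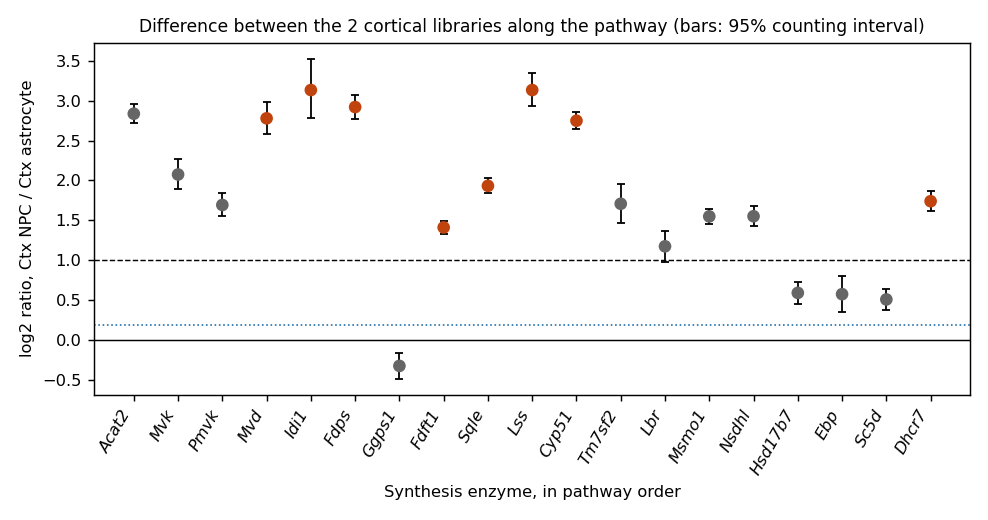
The log2 ratio of Ctx NPC to Ctx astrocytes for 19 synthesis enzymes in pathway order, members in red-brown and other enzymes in grey, with 95% counting intervals as bars. The dashed line marks 2-fold and the dotted line the median of all genes tested, 0.19. Members lie between 1.41 and 3.13, while Ggps1 at -0.32 lies below 0 and Hsd17b7, Ebp and Sc5d lie under the 2-fold line.

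Among the 12 regulators of the pathway, 3 were at least 2-fold higher and 2 at least 2-fold lower in Ctx NPC than in Ctx astrocytes, with a median log2 ratio of 0.08. Both counts lie near the shares over all genes tested, 20.1% higher and 17.9% lower. Insig1, a SREBP target that holds the SREBP-SCAP complex back, had 1959 reads in Ctx NPC against 265 to 455 in the astrocyte libraries, a log2 ratio of 2.98 between the cortical libraries (interval 2.80 to 3.18). Srebf2, the gene of SREBP-2, had 7349 reads against 2044 to 3091, and Srebf1, whose products drive fatty acid synthesis, had 6971 against 1465 to 2889. Their log2 ratios were 1.35 and 1.37. The 2 lower regulators are named after their values were seen. Insig2, the other INSIG protein, had 615 reads in Ctx NPC against 1351 to 1972, a log2 ratio of -1.58. Mylip, a ubiquitin ligase and a target of the sterol-sensing LXR receptors, had 53 reads in Ctx NPC, 160 in Ctx astrocytes, 371 in VM astrocytes without virus, 1355 in the library titled C and 407 in that titled NF. The FPKM of Insig1 was 2.95 times that of Insig2 in Ctx NPC and 0.125 to 0.232 times in the astrocyte libraries, so the order of the pair was turned.

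Of 9 tested genes of sterol uptake and trafficking, 3 were at least 2-fold higher and 2 at least 2-fold lower in Ctx NPC. For all genes tested these shares were 20.1% and 17.9%. Stard4, a carrier of sterol between membranes, had 746 reads in Ctx NPC and 172 to 314 in the astrocyte libraries, a log2 ratio of 2.13. Lrp1, a broad lipoprotein receptor, and Lipa, the lysosomal lipase that frees cholesterol from its esters, are named after their values were seen, with log2 ratios of -1.26 and -2.01. Of 12 genes of efflux, esterification and oxidation, none was 2-fold higher and 4 were at least 2-fold lower in Ctx NPC than in Ctx astrocytes, with a median log2 ratio of -0.56. Abca1, the pump that loads cholesterol onto apolipoproteins, had 10367 reads in Ctx NPC and 13392 in Ctx astrocytes, a log2 ratio of -0.27. Apoe, the main apolipoprotein of the brain, had 45820 and 43434 reads, a log2 ratio of 0.18. In VM astrocytes without virus, Abca1 had 5235 and Apoe 20958 reads. These numbers were 13765 and 46634 in the library titled C, and 6910 and 14704 in that titled NF. Both genes were thus lower without virus and in the library titled NF than in Ctx NPC. Ch25h, which makes 25-hydroxycholesterol, had 5 reads in Ctx NPC, 55 in Ctx astrocytes and 295 to 1618 in the VM libraries.

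Fatty acid synthesis enzymes, the neighbouring lipid pathway, were at least 2-fold higher in 8 of 11 tested genes and at least 2-fold lower in 1, with a median log2 ratio of 1.32. The shares over all genes tested were 20.1% and 17.9%. Elovl6, which lengthens saturated fatty acids, had the highest log2 ratio of that list, 2.34. Fasn, the fatty acid synthase, had 15373 reads in Ctx NPC and 3051 to 4438 in the astrocyte libraries, a log2 ratio of 2.15. Scd2, the main desaturase of the brain, had 120047 reads in Ctx NPC, 46031 in Ctx astrocytes and 13680 to 16966 in the VM libraries. Ctx astrocytes were 2.95-fold above VM astrocytes without virus for Scd2, whereas none of the 8 cholesterol enzymes differed by 2-fold between these libraries. Of 9 enzymes that use mevalonate products for prenylation, dolichol or ubiquinone, 1 was at least 2-fold higher, with a median log2 ratio of 0.52. It was Pdss1, which builds the tail of ubiquinone, at 208 and 23 reads and a log2 ratio of 3.25. Aacs, which activates acetoacetate for lipid synthesis, had 2751 and 753 reads, a log2 ratio of 1.97.

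**Figure D3:**
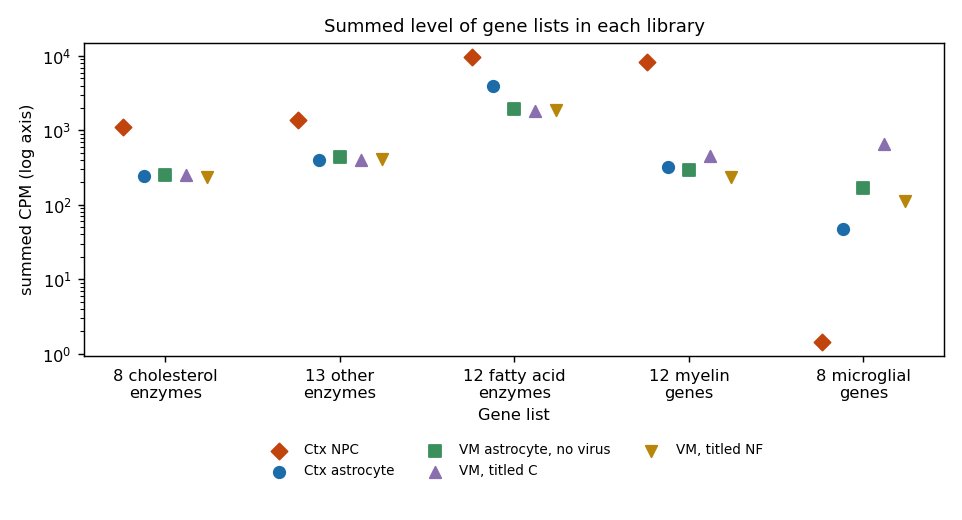
Summed CPM on a log axis of 5 gene lists in each library. The cholesterol enzymes lie between 234 and 250.1 CPM in the 4 astrocyte libraries and at 1129 CPM in Ctx NPC, the myelin genes reach 8274 CPM there, and the microglial genes are lowest there at 1.45 CPM.

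Other cell markers moved with the same contrast. The 6 proliferation genes summed to 315 CPM in Ctx NPC and 88.4 CPM in Ctx astrocytes, but the 3 VM libraries lay at 312 to 367 CPM with enzyme sums of 234 to 250.1 CPM. The 6 oligodendrocyte progenitor genes summed to 3562 CPM in Ctx NPC and 325 to 732 CPM in the astrocyte libraries. The 9 astrocyte genes summed to 10432 CPM and 1524 to 4097 CPM, and the 6 fibroblast and mural genes to 150.2 CPM and 855 to 2554 CPM. Gfap made 122531 of the 208761 reads of the astrocyte list in Ctx NPC. Of its 8 tested genes, 3 were at least 2-fold above Ctx astrocytes, beside 20.1% of all genes tested. Aldh1l1 was 1.01-fold higher and Slc1a2 was 4.03-fold lower. The part of these markers in the enzyme levels was not tested.

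Within each library, the make-up of the set was compared per length. In Ctx NPC Fdps was highest at 103 FPKM, followed by Sqle at 78.0, Cyp51 at 60.8 and Fdft1 at 52.2 FPKM. Fdps also led in VM astrocytes without virus at 19.5 FPKM and in the library titled C at 22.3 FPKM. Sqle led in Ctx astrocytes at 20.4 FPKM and in the library titled NF at 16.9 FPKM, each time closely followed by Fdft1 at 19.6 and 16.8 FPKM. Lss and Idi1 were the lowest pair in every library, at 13.8 and 9.88 FPKM in Ctx NPC and at 1.57 and 1.12 FPKM in Ctx astrocytes. The span from the highest to the lowest enzyme was 10.4-fold in Ctx NPC, 11.5-fold in the library titled C, 12.2-fold in that titled NF, 14.6-fold without virus and 18.2-fold in Ctx astrocytes. Fdps made 25.6% of the summed FPKM of the set in Ctx NPC and 25.1% in the library titled C, against 16.3%, 22.2% and 17.1% in Ctx astrocytes, VM astrocytes without virus and the library titled NF. Fdft1 made 13% and 13.7% in the former pair and 23.5%, 19.6% and 21.1% in the latter. For every enzyme but Dhcr7, the share in the library titled C was the nearest to that in Ctx NPC. Sqle made 19.5% in Ctx NPC and 18.9% in the library titled C, and Cyp51 15.2% and 14.9%. Dhcr7 made 9.68% in Ctx NPC, 12.9% in the library titled C and 11.9% without virus. The summed level of the set was 400.5 FPKM in Ctx NPC and 88.6 FPKM in the library titled C.

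**Figure D4:**
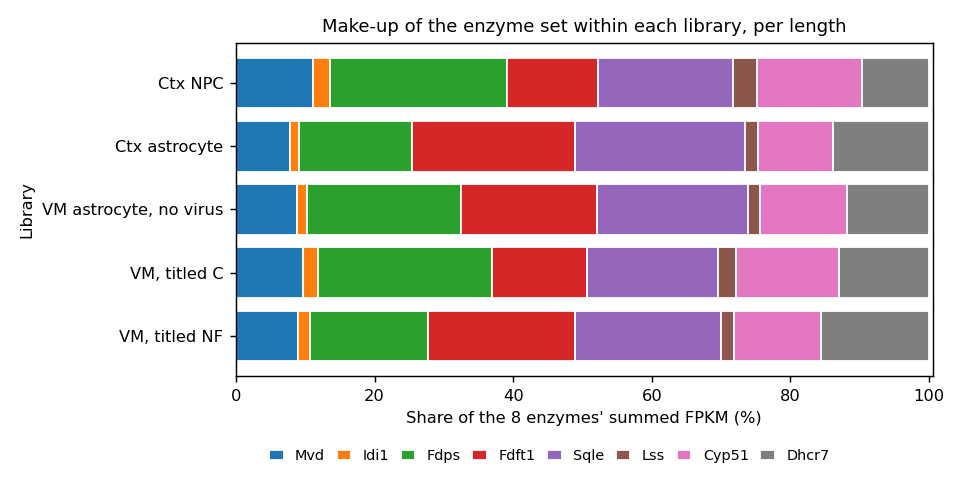
Share in percent of the 8 enzymes' summed FPKM that each enzyme takes, 1 bar for each library. Fdps takes 25.6% in Ctx NPC and 25.1% in the VM library titled C but 16.3% in Ctx astrocytes, and Fdft1 takes 13%, 13.7% and 23.5% in the same libraries.

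Region of origin was compared between Ctx astrocytes and VM astrocytes without virus. None of the 8 members differed by 2-fold, with a median log2 ratio of -0.11 and a range from -0.52 for Fdps to 0.19 for Fdft1. Over 12553 genes tested the median was -0.05, and 4.49% were at least 2-fold higher and 9.89% at least 2-fold lower in Ctx astrocytes. Fdps was 1.44-fold and Cyp51 1.21-fold lower in Ctx astrocytes, with counting intervals that leave out 0 on the log2 scale (-0.71 to -0.34 and -0.41 to -0.14). The intervals of Idi1, Sqle, Lss and Dhcr7 held 0.

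The VM libraries that received virus were set beside the VM library without virus, which both comparisons share. In the library titled C, none of the 8 members differed by 2-fold, with a median log2 ratio of 0.17 beside -0.01 for all genes tested, of which 7.3% were at least 2-fold higher and 8.48% at least 2-fold lower. Its members spread in both directions. Lss was 1.56-fold higher, a log2 ratio of 0.64 (interval 0.39 to 0.90), Idi1 stood at 0.52 (0.11 to 0.95) and Cyp51 at 0.27 (0.15 to 0.39). Fdft1 was 1.41-fold lower, at -0.50 (-0.62 to -0.38), and Sqle stood at -0.20 (-0.32 to -0.08). Mvd, Idi1, Fdps, Lss and Cyp51 had their highest astrocyte value in this library, and Fdft1 and Sqle their lowest. For Sqle the value of the library titled NF lay within the counting error of it, as did the value without virus for Mvd. In the same library Mbp had 3543 reads against 655 without virus, and the myelin list summed to 454 CPM against 290 CPM, a 1.57-fold higher sum. Cnp made 3709 of the 10235 reads of this sum in the library titled C and 4573 of 6169 without virus. It was 1.31-fold lower in the library titled C. The median log2 ratio of the myelin list was 1.75, with 8 of 11 tested genes at least 2-fold higher and 1 at least 2-fold lower. The microglial list summed to 663 CPM against 169 CPM. The enzyme sums of these libraries were 249.7 and 250.1 CPM.

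In the library titled NF, none of the 8 members differed by 2-fold from VM astrocytes without virus, with a median log2 ratio of -0.07 beside -0.05 for all genes tested. Only 0.322% of those genes were at least 2-fold higher and 0.668% at least 2-fold lower. Fdps was 1.43-fold lower, at -0.51 (interval -0.70 to -0.33), and Dhcr7 1.20-fold higher, at 0.26 (0.11 to 0.42). The intervals of Mvd, Idi1, Fdft1 and Lss held 0.

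The libraries titled NF and C were then compared directly, the contrast of the transcription factors if the titles hold. None of the 8 members differed by 2-fold, with a median log2 ratio of -0.33 for NF to C beside -0.02 for all genes tested, of which 9.53% were at least 2-fold higher and 9.73% at least 2-fold lower. Fdps and Lss were 1.63-fold and 1.60-fold lower in the library titled NF, with log2 ratios of -0.70 (interval -0.88 to -0.53) and -0.67 (-0.94 to -0.42). Idi1, Cyp51 and Mvd stood at -0.47, -0.40 and -0.25, and their intervals left out 0. Fdft1 was 1.38-fold higher, at 0.47 (0.35 to 0.59). Sqle stood at 0.01 and Dhcr7 at 0.14, with intervals that held 0. Cell markers moved in the same comparison. The median log2 ratio was -3.00 for the myelin list, with 8 of 11 tested genes at least 2-fold lower in the library titled NF, -2.79 for the microglial list, with 6 of 7 lower, and -1.70 for the oligodendrocyte progenitor list, with 5 of 6 lower. In the myelin list 1 gene was at least 2-fold higher, and the sum of that list was 1.92-fold lower. Cnp, 1.16-fold higher in the library titled NF, made 3879 of the 4813 reads of that sum there. The part of these markers in the enzyme values was not tested. If the treatment entries hold in place of the titles, the same values describe the mock virus against the factors.

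**Figure D5:**
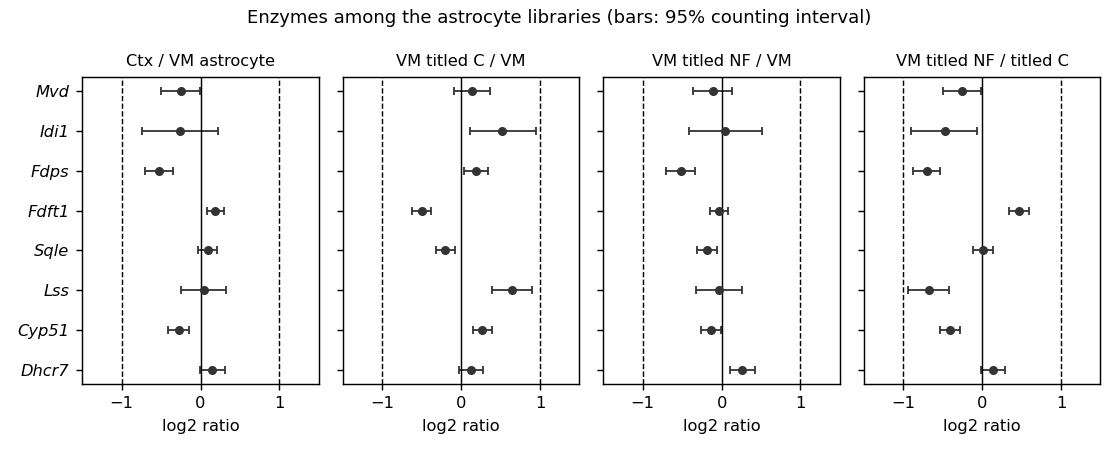
The log2 ratios of the 8 enzymes in 4 comparisons among the astrocyte libraries, with 95% counting intervals as bars and dashed lines at 2-fold. All points lie between the dashed lines, from -0.70 for Fdps in the library titled NF against that titled C to 0.64 for Lss in the library titled C against VM astrocytes without virus.

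Genes with the closest pattern were found among 10711 genes with FPKM above 1 in every library. The measure was the root-mean-square difference of the centred log2 CPM from the mean of the 8 members over 5 libraries. The 5 nearest genes were Npl at 0.067, Marcks at 0.080, Fasn at 0.115, Arl4a at 0.126 and Ccnj at 0.141. Their log2 ratios between the cortical libraries ran from 2.15 for Ccnj and Fasn to 2.51 for Marcks. Of the other pathway enzymes, Mvk stood at rank 13, Pmvk at rank 69 and Acat2 at rank 70. Tm7sf2, Nsdhl and Msmo1 stood at ranks 138, 143 and 309. Hsd17b7, Sc5d and Lbr were farther off at ranks 1693, 2209 and 3103, and Ggps1 and Ebp stood at ranks 7061 and 7076. The likeness rests on 5 points from single libraries.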

How the data were processed

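RNA-seq was read from 5 libraries of cultured mouse cells. The deposited counts are raw reads per RefSeq transcript, which the authors obtained with STAR and HTSeq-count. The methods name GRCm38/mm10, whereas the submitters' processing notes name mm9, bcl2fastq 1.8.4 and DESeq. The deposited files hold no coordinates, and those printed are from RefSeq on GRCm38.p6. FPKM was also deposited, and the deposited values equal the counts divided by length and total to within a relative difference of 4.09e-05. No pair of libraries was identical. Symbols were paired with 19997 of 20178 transcripts. Counts were scaled to library totals, and log2 ratios were taken with 0.5 reads added. A gene was called at 2-fold with FPKM above 1 in at least 1 library of the comparison. Groups followed the sample titles.

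The members and gene lists were chosen with earlier results of these data known. All members were named, with the other pathway enzymes past 2-fold between the cortical libraries, further pathway genes, the gene of each pathway list with the greatest change, Mbp, Gfap, Nr4a2, Foxa2 and the 5 genes nearest in pattern. Further marker genes, Ctsb and the genes so described were named after their values were seen. The alternatives were scaling by upper quartile, by TMM (edgeR 4.0.16) or by median of ratios (DESeq2 1.42.0), 5 reads added, other filters and cutoffs of 1.5-fold and 3-fold. Some genes under this rule are not reported here. No model was fitted. The calculations were tested on simulated counts. Scripts ran under R 4.3.3 and Python 3.11.15 with scipy 1.17.1.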

Additional observations from a re-analysis of the deposited data

How the results depend on the processing

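No paired analysis was possible because each condition has 1 library and no replicate numbers. For Ctx NPC against Ctx astrocytes, TMM, median-of-ratios and upper-quartile scaling lowered the median log2 ratio of all genes from 0.19 to between 0.01 and 0.02, and that of the members from 2.76 to 2.58 with TMM, 2.58 with median-of-ratios size factors and 2.59 with upper-quartile scaling. Totals without the 100 genes with most reads, an alternative chosen after seeing the data, gave 0.12 for all genes and 2.69 for the members. The shift is the same for every gene, so the distance of the members from all genes stayed. Against all 4 astrocyte libraries, the median of 2.20 became 2.06 with TMM, 2.03 with median-of-ratios size factors and 2.06 with upper-quartile scaling. Without the VM libraries titled C and NF, an alternative chosen after seeing the data, it was 2.43. TMM moved the enzyme sum of Ctx NPC from 1129 to 1036 CPM, that of Ctx astrocytes from 246 to 256 CPM and that of the library titled NF from 234 to 243 CPM. At 1.5-fold, 1 member (Lss) was higher in the library titled C than without virus, and 2 (Fdps and Lss) were lower in the library titled NF than in that titled C, where the 2-fold rule called none. Of all genes tested in these comparisons, 14.6% and 19.1% passed 1.5-fold in the same direction, beside 1 of 8 and 2 of 8 members. Of 131 recomputed main results, 119 stayed within the counting interval or within 1.5 times the count, and none changed direction from a called value. The 119 include the counts under other filters on low values, which could not change. The 12 that moved include the members' median of 2.76 under TMM, median-of-ratios and upper-quartile scaling. They also include the enzyme sum of Ctx NPC with TMM, at 1036 CPM outside its interval of 1115 to 1144 CPM. All 8 members had FPKM above 1 in every library. Replacing the likeness measure by Pearson's correlation left 0 of the 5 nearest genes. Idi1, with 69 to 125 reads in the astrocyte libraries, had the widest intervals. No interval holds the variation between cultures.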
